A study of Mus musculus with 6 samples.

Results

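The array probes mmu-miR-720, mmu-miR-1937a, mmu-miR-1937b and mmu-miR-1937c make up 4 of the 707 mouse microRNA (miRNA) probes of an array run on whole dorsal skin of C3H/HeJ mice. They were taken by name, as older miRBase entries whose target sequences end in CCA, the 3′ end of mature transfer RNAs (tRNAs). They were chosen by measured values as well: the set was selected on the intensities of these probes in diseased and unaffected skin, so the differences between those groups are given as a description, and nothing is read from the fit's calls of these probes. The prefix mmu, for mouse, is left off below. Mice of the inbred strain C3H/HeJ can spontaneously lose hair to alopecia areata (AA), a disease in which T cells attack the hair follicle. The AA group held 3 arrays of skin with hair loss from mice with spontaneous AA, and the control group 3 arrays of normal haired skin from unaffected mice of the strain. The labels used here give no age, sex or treatment, and they do not say whether any arrays share a mouse, so the spread between arrays may in part be technical.

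A tRNA carries amino acids to the ribosome. The CCA at its 3′ end is not encoded in the mouse gene but is added after transcription by the CCA-adding enzyme Trnt1, and the amino acid is attached to its last base. Mature tRNAs can be cut into shorter fragments by nucleases, among them angiogenin under stress, and fragments from the 3′ side keep the CCA. The miR-720 entry is regarded in the field as a tRNA fragment rather than as a product of Drosha and Dicer. The labels' protocols name both poly(A) tailing with Cy3 staining and biotin-labelled cRNA, and which was used for these arrays is not known. Which molecule a probe bound was not measured, and the probe names are used here only as names.

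The target sequences listed for the 4 probes in the scanner files are shown because they define the set and show how nearly identical 3 of its members are. They run from 5′ to 3′, and the capitals mark the CCA end.
miR-720: aucucgcuggggccuCCA
miR-1937a: aaucccggacgagcccCCA
miR-1937b: aucccggacgagcccCCA
miR-1937c: aucccggaagagcccCCA
The target of miR-1937a is that of miR-1937b with 1 further base at the 5′ end. The target of miR-1937c differs from that of miR-1937b by 1 substitution in 18 bases, C9A (miR-1937b first, counted from the 5′ end). The miR-720 target lies at least 6 edits from the other members, and no target outside the set lies closer than 7 edits to a member. These targets were short, at 18 or 19 bases, where the median of all 707 targets was 22 bases and 28 targets (3.96%) had 19 bases or fewer. They were also rich in G and C, from 66.7% in miR-720 and miR-1937c to 68.4% in miR-1937a and 72.2% in miR-1937b, against a median of 47.8%. A GC content of 66.7% or more was found in 56 targets (7.92%).

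A CCA end alone did not go with signal. Of the 707 targets, 10 (1.41%) ended in CCA, and 6 of these belong to other probes. Only miR-223, the miRNA of neutrophils and other myeloid cells, was detected often enough to be tested among those 6. The probe of miR-1274a is shown because its 3′ end reads GCGCCA and it is a further older entry with a CCA end, detected on none of these arrays.
miR-1274a: ucaggucccuguucaggcgCCA
Its raw intensity was 215, 420 and 546 in AA replicates 1 to 3 and 173, 165 and 189 in unaffected replicates 1 to 3. That was 0.633 to 1.03 times the median empty spot. The remaining probes, for miR-877*, miR-1-2-as, miR-434-5p and miR-212, were likewise detected on 0 arrays. All 4 members were detected on all 6 arrays, where detected means a mean raw intensity above the 95th percentile of the array's empty spots.

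The arrays differed among themselves before any comparison. The median empty spot had a raw intensity of 168 to 274 on the unaffected arrays and of 209 to 530 on the AA arrays, and 97 to 202 miRNA probes were detected per array. The median signal of the 88 probes detected on every array was 4.20, 16.9 and 11.4 times the empty spots in unaffected replicates 1 to 3, and 3.33, 3.24 and 1.46 times in AA replicates 1 to 3. Unaffected replicate 1 was not closer to its own group than to AA. Over the 157 tested probes it correlated at r = 0.73 and 0.84 with unaffected replicates 2 and 3. With AA replicates 1 to 3 its r was 0.90, 0.85 and 0.80. The groups were not separate in other pairs either. The r of AA replicate 1 was 0.88 with unaffected replicate 3 and 0.88 with AA replicate 3, and AA replicates 2 and 3 had r = 0.83. The members' differences are also given below without each unaffected array in turn. The keratinocyte list (miR-203, miR-205, miR-200a and miR-200b) had all 4 members tested. Its mean log2 intensity was 10.45 to 11.13 in AA and 10.90 to 11.57 in unaffected skin. The skeletal muscle and red cell lists, given below, reached values as high or higher, so this reading does not by itself establish the tissue.

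The probes of miR-1937a and miR-1937b were bright on every AA array and ran from the top of the array to a far lower place within the unaffected group. The raw intensity of miR-1937a was 5529, 9932 and 9802 in AA replicates 1 to 3 and 14930, 2417 and 4285 in unaffected replicates 1 to 3. Ranked by raw intensity among the 707 probes of each array, it stood 6th, 2nd and 1st in AA, and 1st, 54th and 26th in unaffected skin. Brightness ranks order probes on an array and do not order the abundance of RNAs. After quantile normalization, which gives every array the same distribution, the log2 intensity of miR-1937a was 13.03, 13.54 and 13.78 in AA and 13.78, 9.83 and 11.34 in unaffected skin. The values of AA replicate 3 and unaffected replicate 1 are equal by construction, because the probe was the brightest on both arrays. The 3 AA arrays lay close together, unaffected replicate 1 lay with them, and unaffected replicates 2 and 3 lay below, so the groups overlapped. The closeness of the AA arrays is in part set by the normalization. Ranks of 6th, 2nd and 1st confine the values to the top of the shared distribution. In the value table deposited by the authors the AA arrays ran from 8296 to 33062.

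The miR-1937b probe gave the same picture. Its raw intensity was 5063, 8705 and 8550 in AA replicates 1 to 3 and 12649, 1839 and 3540 in unaffected replicates 1 to 3. Its normalized log2 intensity was 12.90, 13.25 and 13.54 in AA and 13.54, 9.49 and 10.87 in unaffected skin. All 6 arrays took the same order for miR-1937a and miR-1937b, with r = 0.999, and the targets differ by a single terminal base, so they count as 1 measurement. The AA mean of miR-1937a was 13.45 ± 0.38 and the unaffected mean 11.65 ± 2.00 (SD, n = 3 each), a log2 difference of 1.80 (SE 0.81 in the limma fit across all tested probes). Those of miR-1937b were 13.23 ± 0.32 and 11.30 ± 2.06, a log2 difference of 1.93 (SE 0.82), or 3.80-fold in the means. The difference of miR-1937b was the largest and that of miR-1937a the next largest of the 157 tested probes in the positive direction, values on which they were selected.

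miR-720 differed less between the groups, and 1 dim spot lowered it on an AA array. Its raw intensity was 2517, 7012 and 4806 in AA replicates 1 to 3 and 5973, 5650 and 3585 in unaffected replicates 1 to 3. Its normalized log2 intensity was 11.54, 12.72 and 13.25 in AA and 12.47, 10.87 and 10.91 in unaffected skin. The groups overlapped, since unaffected replicate 1 lay above AA replicate 1. The group means were 12.50 ± 0.88 and 11.42 ± 0.91 (SD, n = 3 each), a log2 difference of 1.09 (SE 0.57) or 2.12-fold, the fifth largest positive difference of those tested.

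The spots of AA replicate 1 account for part of the low value there. The miR-720 probe has 5 spots on each array, and on AA replicate 1 they ran from 341 to 3245 with a median of 2989. The spot at 341 lay at 0.111 times the median of the other 4. The 3 detected spots within 2 rows and 2 columns of it lay at 0.872 to 1.04 times their own repeats. With that spot left out, a step chosen after its value was seen, the normalized value of AA replicate 1 was 12.36 in place of 11.54 and the log2 difference 1.36 in place of 1.09. Unaffected replicate 1, at 12.47, still lay above AA replicate 1. On the other 5 arrays the coefficient of variation of the 5 miR-720 spots was 5.99% to 8.69%, close to the median of the other detected probes (6.68% to 8.53% over the 6 arrays).

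In raw intensity miR-720 was no dimmer in unaffected replicate 2 than on most AA arrays: its 5650 lay above AA replicates 1 and 3. It stood at 33.7 times the median empty spot there, the highest multiple of the 6 arrays, against 12.0, 14.3 and 9.06 times in AA replicates 1 to 3. Its brightness rank on that array was nevertheless 32nd, against 13th, 9th and 4th in AA. The higher AA mean of miR-720 is therefore a position among the miRNA probes of each array, not a higher raw intensity. Without normalization between arrays the AA mean was the lower one (log2 difference -0.38), in a setting where the median of all tested probes was -0.84.

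miR-1937c was the dim member and its group means lay close together. Its raw intensity was 283, 1077 and 657 in AA replicates 1 to 3 and 1781, 204 and 289 in unaffected replicates 1 to 3. Its normalized log2 intensity was 8.16, 9.27 and 9.17 in AA and 10.91, 7.24 and 7.55 in unaffected skin. Unaffected replicate 1 was the highest array and stood at 6.50 times the median empty spot, where the other 5 arrays stood at 1.22 to 2.20 times. The group means were 8.87 ± 0.61 and 8.57 ± 2.03 (SD, n = 3 each), a log2 difference of 0.30 (SE 0.84), which ranked 45th of 157. In normalized intensity, unaffected replicates 2 and 3 lay below every AA array for each of the 4 members. In raw intensity they did not for miR-720 and miR-1937c.

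The members varied together over the 6 arrays. Pearson's r between the profiles of 2 members ran from 0.77 (miR-720 with miR-1937c) to 0.999 (miR-1937a with miR-1937b), as a description over 6 arrays that share the normalization. miR-720 and miR-1937b, whose targets lie 6 edits apart, had r = 0.86. The ratio of 2 members on an array nevertheless changed between arrays. After subtraction of the median empty spot, miR-1937b over miR-720 was 2.10, 1.26 and 1.88 in AA replicates 1 to 3 and 2.17, 0.305 and 0.987 in unaffected replicates 1 to 3. The dim miR-720 spot is included in AA replicate 1. Unaffected replicates 2 and 3 had the lowest ratios, so miR-1937b was lower there relative to miR-720 as well as relative to the other probes.

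The ratio of miR-1937b to miR-1937c, whose targets differ at 1 base, also changed. It was 65.9, 14.0 and 63.4 in AA replicates 1 to 3 and 8.21, 45.3 and 33.7 in unaffected replicates 1 to 3. Unaffected replicate 1 and AA replicate 2, on which miR-1937c stood farthest above the empty spots, had the lowest ratios, and where miR-1937c lay near the empty spots the ratio has little precision. The ratio of miR-1937a to miR-1937b stayed between 1.10 and 1.35 on the 6 arrays.

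The 3 miR-1937 probes lie in adjacent rows of the same column in each of the 5 blocks of the chip. The 40 spots next to them that hold other probes had a median raw intensity of 163 to 559 per array. The highest of these spots was 637, on unaffected replicate 2, where the lowest miR-1937b spot was 1739. It lay above the miR-1937c spots of that array, at 175 to 229. On unaffected replicate 3 the highest neighbour, at 535, also lay above the miR-1937c spots, at 252 to 371. The miR-1937c spots lay above every such neighbour only on AA replicate 2 and unaffected replicate 1. Of these 40 spots, 8, 0 and 11 lay above the 95th percentile of the empty spots in AA replicates 1 to 3, and 0, 8 and 12 in unaffected replicates 1 to 3.

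The spread within the unaffected group was wider for the members than for most tested probes, but was not particular to them. The SD over the 3 unaffected arrays was 2.00, 2.06 and 2.03 for miR-1937a, miR-1937b and miR-1937c and 0.91 for miR-720, where the median of the tested probes was 0.44. Over the 3 AA arrays the SD was 0.38, 0.32, 0.61 and 0.88 in the same order, beside a median of 0.46. For miR-1937a and miR-1937b the AA SD is in part limited by their top ranks under quantile normalization. Of the tested probes, 97.5%, 98.7%, 98.1% and 86.6% had an unaffected SD no larger than that of miR-1937a, miR-1937b, miR-1937c and miR-720. The probes of miR-1 (2.33) and miR-2861 (2.16) had a larger unaffected SD than any member. Those of miR-31 (1.89) and miR-705 (1.63) lay between the miR-1937 probes and miR-720. Unaffected replicate 1 was the highest of its group for each member. Without it the log2 difference was 2.81 for miR-1937a, 3.01 for miR-1937b, 1.44 for miR-1937c and 1.59 for miR-720. Without unaffected replicate 2 the log2 differences were, in that order, 0.91, 1.05, -0.39 and 0.82, and without unaffected replicate 3 they were 1.66, 1.69, -0.22 and 0.86. The sign of the miR-1937c difference was thus set by single unaffected arrays.

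In the fit across all tested probes (limma with Benjamini-Hochberg adjustment), 0 of 157 probes passed an adjusted p of 0.05, a background of 0%, and 0 of the 4 members did. At an unadjusted p under 0.05 there were 12, counted with the members, of which 4 were higher and 8 lower in AA. Outside the set, the smallest unadjusted p belonged to miR-296-5p (log2 difference 0.92) and miR-146a (0.94), higher in AA, and to miR-30c (-1.39) and miR-30b (-1.46), lower in AA, and none of these passed. Without unaffected replicate 1 the fit called 5 of 156 probes (3.21%), among them miR-1937a and miR-1937b. Without unaffected replicate 2 it called 1 of 127 (0.787%), miR-2861. The members' calls are given without further reading, since the contrast was used to choose them.

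All 4 members had a higher mean in AA, as did 73 of the 157 tested probes, whose median log2 difference was -0.039. A log2 difference above 1 was found for 3 of the 4 members and for 6 of the 157 tested probes (3.82%). Those 3 members are among the 6, and the choice of members makes the share no evidence. The groups did not overlap for 0 of the 4 members, where 4.46% of the tested probes lay wholly higher and 7.01% wholly lower in AA.

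The dependence of signal on GC content, which is high in the members, also moved with the groups. Fitted within each array, log2 intensity changed with target GC content by 0.0068, 0.13 and 0.17 per 10 percentage points in AA replicates 1 to 3, above the -0.12, -0.077 and -0.36 of unaffected replicates 1 to 3. Of the 18 other tested probes with a GC content of at least 66.7%, 13 had a higher mean in AA, and the median log2 difference of the 18 was 0.53. Those with a lower mean in AA were miR-762 (-0.40), miR-1895 (-0.27), miR-2133 (-0.26), miR-328 (-0.18) and miR-2132 (-0.063). With each array's GC trend removed, the log2 difference was 1.32 for miR-1937a, 1.34 for miR-1937b, 0.66 for miR-720 and -0.13 for miR-1937c. The members took part in fitting that trend, so its removal is not independent of their own values. The bright GC-rich probes of miR-2861 (log2 difference 1.76), miR-705 (1.13), miR-2134 (0.80) and miR-709 (0.38) had higher means in AA. All but miR-2134 (63.2% GC) are already counted among the 13. Over the 6 arrays the r of these bright probes with the mean of the members was -0.29 to 0.31. The probe of miR-1224 (66.7% GC), which was named for its high r, had r = 0.90. That of miR-296-5p (66.7% GC), named for another reason, had r = 0.47. miR-2861 had a log2 intensity of 11.85, 12.17 and 13.42 in AA replicates 1 to 3 and of 9.15, 13.18 and 9.83 in unaffected replicates 1 to 3, high on the unaffected array where miR-1937a and miR-1937b were lowest.

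The probes whose profile over the 6 arrays was most like the mean of the members, by Pearson's r, were those of miR-690 (r = 0.94), miR-92b (0.93), miR-1224 (0.90), miR-31 (0.81) and miR-99b (0.80). Their targets have a GC content of 45.5%, 63.6%, 66.7%, 54.5% and 63.6%. Of the 153 other tested probes, 3 (1.96%) had an r over 0.9. The mean used here also takes in miR-1937a and miR-1937b separately, although they count as 1 measurement. miR-690 had a log2 intensity of 10.91, 11.34 and 11.34 in AA replicates 1 to 3 and of 11.24, 9.74 and 10.69 in unaffected replicates 1 to 3, so unaffected replicate 1 again lay with the AA arrays. The targets of these 5 probes lie 10 to 12 edits from the nearest member.

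The least like were those of miR-126-3p, a miRNA of endothelial cells (r = -0.98), miR-29a, which targets collagen transcripts (-0.94), and miR-15a (-0.90). The log2 intensity of miR-126-3p was 9.60, 9.25 and 8.71 in AA replicates 1 to 3, set against 9.02, 11.24 and 10.35 in unaffected replicates 1 to 3, high where the members were low. The probes nearest to the members in mean log2 intensity, those of miR-705, miR-16, let-7i, miR-1 and miR-451, had r of -0.75 to -0.090.

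Within the unaffected group the mean of the skeletal muscle markers moved against the members' profile. The leukocyte and red cell markers are given beside them. The skeletal muscle list (miR-1, miR-133a, miR-133b and miR-206, all 4 tested) had a mean of 10.52, 10.29 and 11.47 in AA replicates 1 to 3 and of 10.41, 12.61 and 12.04 in unaffected replicates 1 to 3. It was high on both unaffected arrays where the members were low. Within AA it was highest on replicate 3, where the mean of the members was also the highest of that group (12.43). The log2 differences, AA minus unaffected, were -2.01 for miR-1, -0.76 for miR-133a, -0.90 for miR-133b and -0.038 for miR-206. The leukocyte list (miR-150, miR-142-3p, miR-155 and miR-223), of which 2 of 4 were tested, stood at 7.70 to 8.03 in AA and 7.52 to 7.75 in unaffected skin. That mean takes in miR-142-3p and miR-155, which did not reach the detection minimum. The tested members went in opposite directions, with log2 differences of 0.74 for miR-150 and -0.52 for miR-223. The red cell list (miR-451 and miR-486, both tested) ran from 8.17 to 12.52 in AA and from 10.58 to 11.50 in unaffected skin. The part of these components in the members' values was not tested, and in whole skin fewer cells of a type and less RNA per cell cannot be told apart.

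The array also carries 5 probes for 5S ribosomal RNA, a structural RNA of the ribosome, which serve as a reading outside the miRNA probes. Their median raw intensity was 15.5, 19.7 and 8.91 times the median empty spot in AA replicates 1 to 3 and 16.3, 60.4 and 62.7 times in unaffected replicates 1 to 3. Unaffected replicates 2 and 3 were the highest, as they were for the median of the 88 probes detected on every array, so this was not particular to 5S. In the value table deposited by the authors, whose arrays are scaled to each other, the median of the 5S probes was 4970, 9444 and 15703 in AA replicates 1 to 3 and 4706, 3261 and 5277 in unaffected replicates 1 to 3.

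The value table deposited by the authors gave the members the same order of arrays in outline. The processed intensity of miR-1937a was 8296, 9820 and 33062 in AA replicates 1 to 3 and 16527, 805 and 1863 in unaffected replicates 1 to 3. That of miR-720 was 4716, 6645 and 15278 in AA and 6314, 1904 and 1595 in unaffected skin. AA replicate 3 lay highest for both, unaffected replicate 1 lay within the range of the AA arrays, and unaffected replicates 2 and 3 lay below it. On the log2 scale the differences in this table were 2.25 for miR-1937a, 2.37 for miR-1937b, 1.55 for miR-720 and 0.60 for miR-1937c.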

How the data were processed

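Small RNA of whole dorsal skin was hybridised to µParaflo chips by a service provider, per the labels' protocols, 1 sample per array. The labels list Cy3 as the dye and also mention biotin-labelled cRNA. Each deposited scanner file gives raw spot intensity, without background subtraction or normalization (3968 spots, 3535 of them for 707 miRNA probes with 5 spots each). Their value table, also an intensity on a linear scale, served as an alternative, with a scaling method, like the genome build and image software, not given in the sources. No coordinates are printed.

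In limma 3.58.1 (R 4.3.3), normexp with an offset of 50 corrected the background of all spots. The log2 values of a probe's spots were averaged, followed by quantile normalization across the miRNA probes. Probes detected on at least 3 of 6 arrays (157) were fitted with lmFit and eBayes, two-sided. The offset compresses differences of dim probes, and the number of arrays limits the precision. The procedure was tested on simulated data.

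The members and lists were chosen with earlier results of these data known. Besides the members, named probes were those with a CCA-ended target, the 5 nearest in intensity, the 5 most and 3 least like in profile, those within 6 edits (0 found), 4 GC-rich bright probes, and the 2 of smallest p in each direction. No list was tested as a set. Replicate numbers are not said to pair mice, and the fit has no block.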

Additional observations from a re-analysis of the deposited data

How the results depend on the processing

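Over 17 alternatives fixed at the start, the log2 difference ran from 0.48 to 2.81 for miR-1937a and from 0.61 to 3.01 for miR-1937b, positive in all 17. For the mean of the 4 probes (1.28) it ran from 0.070 to 2.21, also positive in all 17. The replicate block is counted among the 17, although it repeats the main values by design. That mean is weighted towards miR-1937a and miR-1937b, which enter it separately although they count as 1 measurement. miR-720 turned negative without normalization (-0.38) and after scaling arrays by the 75th percentile over all probes (-0.48). In those settings miR-1937c stood at -0.22 and -0.32, and the median of all tested probes moved to -0.84 and -0.95, so both probes stayed above that median. miR-1937c was also negative with the GC trend removed (-0.13), and rose to 1.91 with the empty-spot median subtracted, on a probe near the empty spots. With single arrays left out, the log2 difference of miR-1937c ran from -0.39 to 1.44, that of miR-720 from 0.69 to 1.59, that of miR-1937a from 0.91 to 2.81, that of miR-1937b from 1.05 to 3.01 and that of their mean from 0.60 to 2.21. The number of probes past the adjusted threshold was 0 in all 14 alternatives that kept the 6 arrays, and 0 to 5 with single arrays left out. The counts at an unadjusted p under 0.05 moved from 4 higher and 8 lower to 0 and 62 under the latter scaling. They were 30 and 2 when only probes detected on every array set the 75th percentile, which put the median of the tested probes at 0.53. Deviations of same-numbered arrays from their group means correlated at 0.14, -0.10 and -0.12. With 3 arrays per group these values cannot settle whether the numbers pair the arrays. The replicate block cannot change a difference of group means in this balanced design, so its mean log2 difference of 1.28 is the main value. Its calls stayed at 0. Leaving out the dim miR-720 spot was chosen after seeing the data and gave a mean of 1.35. Except where given here, the cause of these shifts was not tested.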
